A study of Mus musculus with 2 samples.

Results

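The S phase genes are 38 genes whose products copy DNA, supply its building blocks, protect replication forks or package new chromatin. They were taken by name from a list of genes that mark cells in S phase, not by a rule on their values. The choice was made with earlier results of these data known. All 38 were found among the 15366 genes listed for both libraries. The libraries come from male germ cells of CD1 mouse embryos, an outbred strain, at the embryonic stages E12.5 and E13.5, the age in days after mating. Cells were sorted by FACS for Oct4GFP, a green fluorescent reporter of Pou5f1 (Oct4), a gene that germ cells of this age express. Each stage is 1 droplet library (10x v2, a 3′ assay in which each captured transcript is counted once, as a unique molecular identifier, UMI), and no treatment or mutation is named for either group. With 1 library per stage, stage and library cannot be told apart, no test between stages was possible, and every interval given here is a 95% interval that covers counting error only. Whether each library held cells of 1 embryo or several is not stated in the labels.

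In a dividing cell, the MCM helicase is loaded on replication origins in G1 with the help of Cdc6, is activated together with Cdc45 and GINS at the start of S phase, and opens DNA for the polymerases, which the PCNA clamp holds in place. E2F transcription factors drive many of these genes around the passage from G1 to S, so their transcripts are made in late G1 and S phase and decline towards mitosis. In the mouse fetal testis, germ cells divide for some days after the sex of the gonad is set, then leave the cycle and stay arrested until after birth.

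The E12.5 library held 60383440 UMIs in 2847 barcodes and the E13.5 library 59842242 UMIs in 2992 barcodes. After filters, 2498 germ-like cells remained at E12.5 (95.3% of kept barcodes, 94.4 to 96.1) and 2554 at E13.5 (95.7%, 94.8 to 96.4), with medians of 23481 and 21837 UMIs per cell. All 10 germ cell markers were detected in both libraries, at a summed 7219.7 and 8282 CPM (UMIs scaled to 1000000 per library). Erythroid markers summed to 0.285 CPM at E12.5 against 23.1 CPM at E13.5, Sertoli markers to 11 and 12.7 CPM and endothelial markers to 11.8 and 3.79 CPM. The median mitochondrial share was 3.86% and 4.68%. Clusters of germ-like cells were made up almost entirely of 1 library each, and the E13.5 cluster led by histone genes had the haemoglobin genes Hbb-y and Hba-x among its 10 leading genes; the part of these in the results was not tested. The libraries shared 24 barcode sequences.

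S phase genes were lower in the E13.5 library as a group, and unevenly so. Their summed level was 5058 CPM at E12.5 against 3662 CPM at E13.5, a ratio of 0.724 (0.720 to 0.728). Of the 38 genes, 14 were at least 1.5-fold lower at E13.5, a size that 9.95% of the 7309 genes that reached 10 CPM at either stage showed. The other 24 lay within 1.5-fold and no gene was 1.5-fold higher, against 8.62% of all those genes. Ratios lay below 1 for 36 genes, where 52.7% of all genes did, and the median log2 ratio was -0.55, against -0.02 over all genes. Since the counts were summed over cells, a smaller share of cells that express a gene and less RNA in each of them cannot be told apart in these ratios; the ranges of cells described further on bear on that. The fold lower ran from 3.95 for Rrm2 to 1.53 for Mcm2 among the 14. Nearest to the limit inside were Ubr7 and Mcm2 and nearest outside were Rrm1 and Exo1, both at a ratio of 0.668. With a minimum of 50 CPM in place of 10, 28 of the genes remained and 8 of these were at least 1.5-fold lower, against 5.86% of all genes at that minimum. The 38 genes lie on 16 chromosomes.

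**Figure D1:**
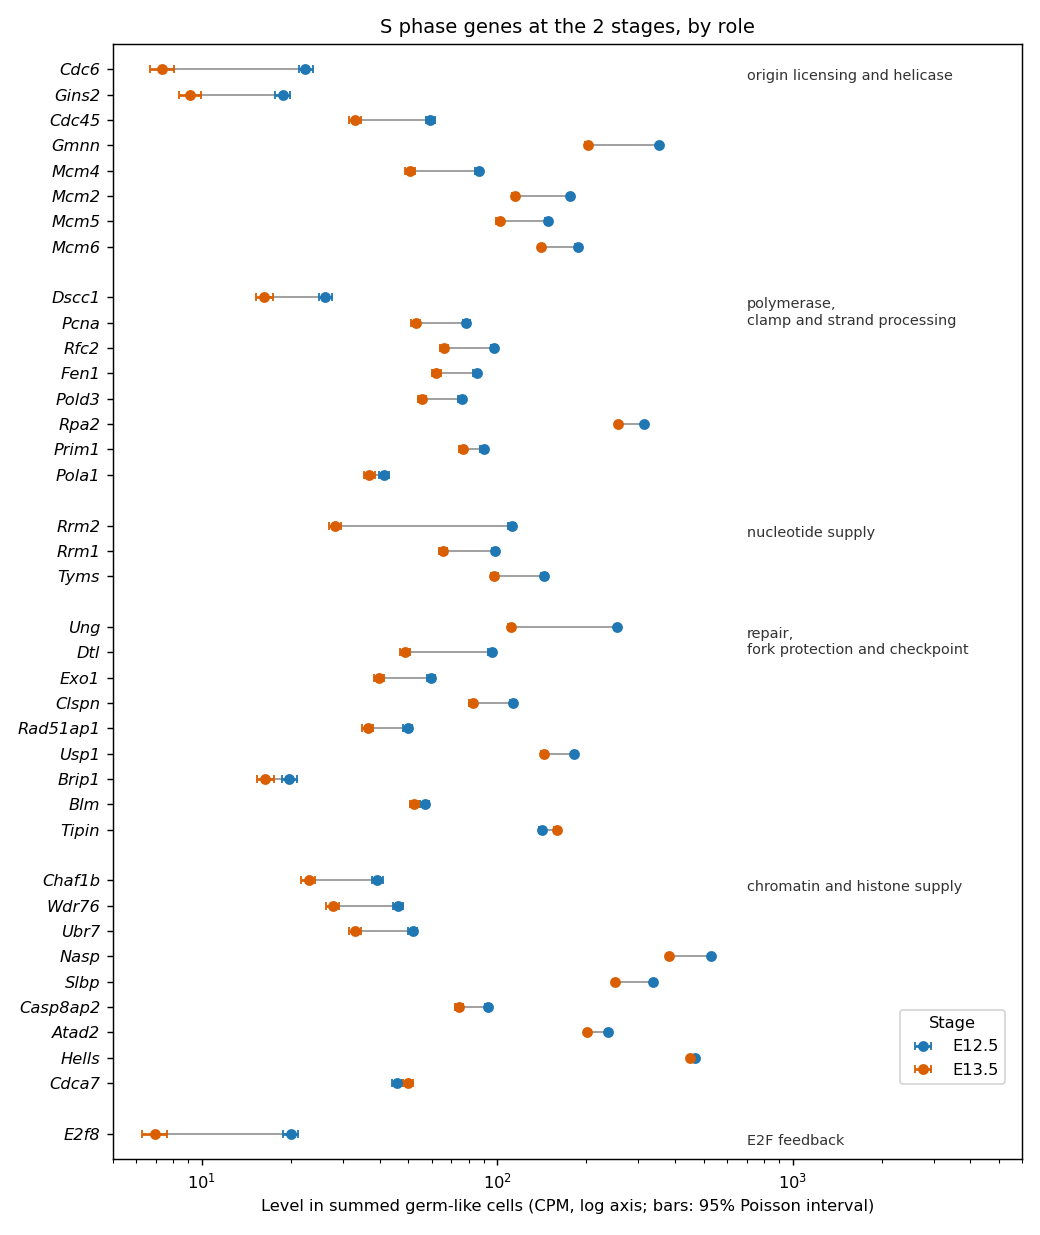
Level of each S phase gene in summed germ-like cells at E12.5 (blue) and E13.5 (orange), in CPM on a log axis, grouped by role; bars are 95% Poisson intervals. In 36 of 38 genes the E13.5 point lies left of the E12.5 point, and the widest gaps are those of Rrm2, Cdc6 and E2f8.

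Of the genes of origin licensing and the replicative helicase, 6 of 8 were at least 1.5-fold lower, against 9.95% of all genes, with a median log2 ratio of -0.79 and a summed level of 1052 CPM at E12.5 against 660.2 CPM at E13.5. Cdc6, the ATPase that loads the MCM helicase (GRCm38 chromosome 11, 98907801 to 98923940), stood at 22.4 CPM (21.3 to 23.7) at E12.5 against 7.36 CPM (6.68 to 8.08) at E13.5, 3.05-fold lower (2.73 to 3.41). Gins2, a subunit of the GINS complex, stood at 18.8 and 9.15 CPM, 2.05-fold lower (1.85 to 2.28). Cdc45, which joins MCM and GINS in the active helicase, stood at 59.4 and 33.0 CPM, 1.80-fold lower (1.70 to 1.90). Gmnn encodes geminin, which blocks a new round of licensing in S and G2 phase. It stood at 353 CPM (348 to 358) and 203 CPM (199 to 206), 1.74-fold lower (1.70 to 1.78), so the inhibitor of licensing and the licensing factor Cdc6 were both lower. The helicase subunits were graded: Mcm4 was 1.71-fold lower (86.7 and 50.7 CPM) and Mcm2 1.53-fold lower (176 and 115 CPM), while Mcm5 (148 and 102 CPM, ratio 0.686) and Mcm6 (188 and 141 CPM, ratio 0.749) fell short of the limit. The protein products of these 4 genes sit in the same ring-shaped complex, yet their ratios ranged from 0.584 to 0.749 with counting intervals that did not overlap between Mcm4 and Mcm6.

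Genes of nucleotide supply held the lowest ratio of all. Rrm2, the regulated small subunit of ribonucleotide reductase, which makes deoxyribonucleotides (chromosome 12, 24708241 to 24714146), stood at 112 CPM (109 to 115) at E12.5 against 28.3 CPM (27.0 to 29.7) at E13.5. That is 3.95-fold lower (3.74 to 4.17). Rrm1, the large subunit of the same enzyme, stood at 98.2 and 65.6 CPM, a ratio of 0.668 (0.642 to 0.696). The subunits of 1 enzyme thus differed in their ratio by more than counting error. Tyms, which makes thymidylate, stood at 144 and 97.8 CPM, a ratio of 0.681 (0.658 to 0.704).

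Polymerase, clamp and strand-processing genes were lower in all 8 cases, where 52.7% of all genes were, but by less. Their median log2 ratio was -0.45, and 1 of 8 was past 1.5-fold, against 9.95% of all genes. Dscc1, part of an alternative clamp loader that also serves sister chromatid cohesion, stood at 26.2 and 16.3 CPM, 1.60-fold lower (1.48 to 1.74). Pcna, the sliding clamp, stood at 78.7 and 52.9 CPM, a ratio of 0.672 (0.642 to 0.704). Reads of Pcna can be shared with the pseudogene Pcna-ps2, which had 12.9 CPM at E12.5 against 6.11 CPM at E13.5, so its level is uncertain by that much; Tyms and Nasp also have annotated pseudogenes, which have no row in the tables. Rpa2, a subunit of the single-strand binding protein, had the most UMIs in this group and stood at 315 and 256 CPM, a ratio of 0.812 (0.795 to 0.830). Nearest to 1 in this group were Prim1 and Pola1, of the DNA polymerase alpha and primase complex, which starts each new strand. Prim1 had a ratio of 0.848 (90.1 and 76.4 CPM) and Pola1 0.891 (41.4 and 36.9 CPM). This did not hold for the whole complex. Its subunits Prim2 and Pola2, among the other replication genes described below, had lower ratios, 0.762 and 0.612. The clamp loader subunit Rfc2 had a ratio of 0.678, the flap nuclease Fen1 0.730 and the polymerase delta subunit Pold3 0.734.

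Among 9 genes of repair, fork protection and the replication checkpoint, 2 were at least 1.5-fold lower (22.2%, against 9.95% of all genes). Ung, the uracil-DNA glycosylase that removes uracil from DNA (chromosome 5, 114130386 to 114139323), stood at 254 CPM (250.3 to 258) and 111 CPM (109 to 114), 2.28-fold lower (2.22 to 2.35), and had the most UMIs of this group at E12.5. Dtl, the substrate receptor of a ubiquitin ligase that degrades licensing factors in S phase, stood at 95.8 and 48.7 CPM, 1.97-fold lower (1.88 to 2.06). Tipin, a partner of Timeless that protects paused forks, went the other way. It stood at 142 CPM (139 to 145) at E12.5 against 159 CPM (156 to 162) at E13.5, a ratio of 1.12 (1.09 to 1.16), the highest of all 38. Blm, a helicase that takes apart recombination intermediates, stood at 56.8 and 52.4 CPM, a ratio of 0.923 (0.879 to 0.970). The other 5 genes of the group had ratios from 0.668 to 0.830: the nuclease Exo1 (0.668), the checkpoint mediator Clspn (0.730), the DNA repair factor Rad51ap1 (0.732), the deubiquitinase Usp1 (0.791) and the helicase Brip1 (0.830).

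Of 9 genes that package new DNA or supply histones, 3 were at least 1.5-fold lower (33.3%, against 9.95% of all genes) and 1 was above 1. Chaf1b, a subunit of the CAF-1 histone chaperone, stood at 39.3 and 23.0 CPM, 1.71-fold lower (1.60 to 1.83). Wdr76 was 1.66-fold lower (1.56 to 1.77; 46.1 and 27.7 CPM) and Ubr7 1.56-fold lower (1.48 to 1.66; 51.7 and 33.1 CPM). Nasp, a chaperone of histones H3 and H4 and the member with the most UMIs, stood at 531 CPM (525 to 537) and 382 CPM (377 to 387), a ratio of 0.719 (0.707 to 0.732). Slbp, which binds the stem-loop of histone transcripts, had a ratio of 0.743 (337 and 250 CPM), and Casp8ap2, which is needed to process the ends of those transcripts, 0.797 (93 and 74.2 CPM). Atad2, a chromatin-bound ATPase with a bromodomain, had a ratio of 0.848 (237 and 201 CPM). Hells and Cdca7, which form a chromatin remodeler needed for DNA methylation, were close to level: Hells stood at 468 and 448 CPM, a ratio of 0.957 (0.941 to 0.974), and Cdca7 at 45.7 and 49.8 CPM, a ratio of 1.09 (1.03 to 1.15). E2f8, an E2F factor that represses E2F target genes and so acts as feedback on this programme (chromosome 7, 48866429 to 48881596), stood at 20 CPM (18.9 to 21.1) and 6.93 CPM (6.27 to 7.64), 2.88-fold lower (2.57 to 3.23).

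Promoters of these genes were read from RefSeq (GRCm38.p6), as the 250 bases before and 50 bases after each start, and 29 of the 38 genes had an entry. E2F sites were searched as the letters TTTCCCGC, TTTGGCGC, TTTCGCGC and TTTGCCGC on either strand, which can overlap each other. Such letters stood in 11 of 29 promoters (37.9%), against 2.60% of 27025 genes with an entry and 5.84% of the 5706 of them at 10 CPM or more. The CCAAT box (ATTGG, either strand) stood in 20 of 29 (69.0%, against 43.9% of genes at 10 CPM or more) and the CHR element of late cell cycle genes (TTTGAA, either strand) in 6 of 29 (20.7%, against 14.0%). Of the other replication genes described below, 57 had an entry. The E2F letters stood in 22 of these, the CCAAT box in 30 and the CHR element in 10, so the E2F letters are not particular to the 38. Windows of 60 bases around the matched letters are shown for 6 of the 11 genes, from Dtl, 1.97-fold lower, to Cdca7, above 1 (Cdc6 also holds such letters and is not shown), with the matched letters in capitals, 5′ to 3′ on the gene's strand. They lie at chr1:191575519-191575578 (minus strand) for Dtl, chr8:75109334-75109393 (plus) for Mcm5, chr1:128359719-128359778 (minus) for Mcm6, chr4:32615268-32615327 (plus) for Casp8ap2, chrX:93632260-93632319 (minus) for Pola1 and chr2:72476122-72476181 (plus) for Cdca7.
Dtl: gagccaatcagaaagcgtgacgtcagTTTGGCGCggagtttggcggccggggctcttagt
Mcm5: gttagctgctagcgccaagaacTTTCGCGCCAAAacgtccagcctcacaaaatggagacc
Mcm6: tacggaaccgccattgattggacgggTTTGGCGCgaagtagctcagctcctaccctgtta
Casp8ap2: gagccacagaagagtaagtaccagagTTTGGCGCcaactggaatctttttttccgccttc
Pola1: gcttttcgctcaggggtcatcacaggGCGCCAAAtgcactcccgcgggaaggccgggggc
Cdca7: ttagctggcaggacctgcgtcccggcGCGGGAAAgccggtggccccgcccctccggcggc
In Mcm5 matches on opposite strands overlap, and the Mcm6 promoter holds 3 matches. For Mcm5 and Mcm6 the bases after the start were not found in a GENCODE transcript of the gene. The Mcm5 entry ends at 75109558, before the GENCODE start of the gene at 75109569. Genes with and without the letters had similar ratios. The 11 genes with them had a median log2 ratio of -0.45 and 3 genes 1.5-fold lower. The 18 without them had a median of -0.56 and 7 genes 1.5-fold lower, Rrm2 and E2f8 among these. Over all genes at 10 CPM or more 9.95% were 1.5-fold lower, and these were not split by the letters. A match describes the sequence and says nothing of binding.

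Other genes of DNA replication, which are not among the 38, were also lower. They too were listed with earlier results of these data known. Of 67 listed, 62 reached 10 CPM, 16 of these (25.8%, against 9.95% of all genes) were at least 1.5-fold lower and none was 1.5-fold higher. Their median log2 ratio was -0.40 and their summed level 6056 CPM at E12.5 against 4698 CPM at E13.5, a ratio of 0.776 (0.772 to 0.780). The lowest ratios were those of factors that drive or curb S phase entry: Ccne1 (cyclin E1) was 3.28-fold lower (3.07 to 3.51; 63.0 and 19.20 CPM), E2f2 2.88-fold lower (2.46 to 3.39) and E2f7 2.18-fold lower (1.91 to 2.49). The highest were Uhrf1, which brings maintenance methylation to new DNA (19.6 and 25.7 CPM, ratio 1.31), Chtf18 (1.27), a partner of Dscc1 in the clamp loader, and Orc3 (1.12). A list of 44 G2/M genes, of which 43 reached 10 CPM, had a median log2 ratio of -0.21 and a summed ratio of 0.874 (0.870 to 0.878), with 5 of 43 genes 1.5-fold lower (11.6%), near the 9.95% of all genes. Replication-dependent histone genes, which are transcribed in S phase, summed to 663 CPM at E12.5 against 389 CPM at E13.5, a ratio of 0.587 (0.578 to 0.597).

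To look at single cells, each germ-like cell was thinned at random to the same number of UMIs, near the 10th percentile of cells in the library of lower depth, which left out 173 shallower cells at E12.5 and 231 at E13.5 and kept 2325 and 2323. A thinned cell held a mean of 74.3 UMIs of the 38 genes together at E12.5 (SD over cells 19.1) and 52.4 at E13.5 (SD 24.8), a ratio of 0.706. The shape of the distribution differed as well as its mean. At E12.5 the 10th percentile, median and 90th percentile were 50, 74.0 and 100 UMIs, and at E13.5 they were 24.2, 47.0 and 92.0. The upper end thus lay close together at both stages and the lower end apart, and the E13.5 cells formed a main peak at low levels and a smaller one above the E12.5 median. A median of 26 of the 38 genes was seen per thinned cell at E12.5 and 20 at E13.5.

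**Figure D2:**
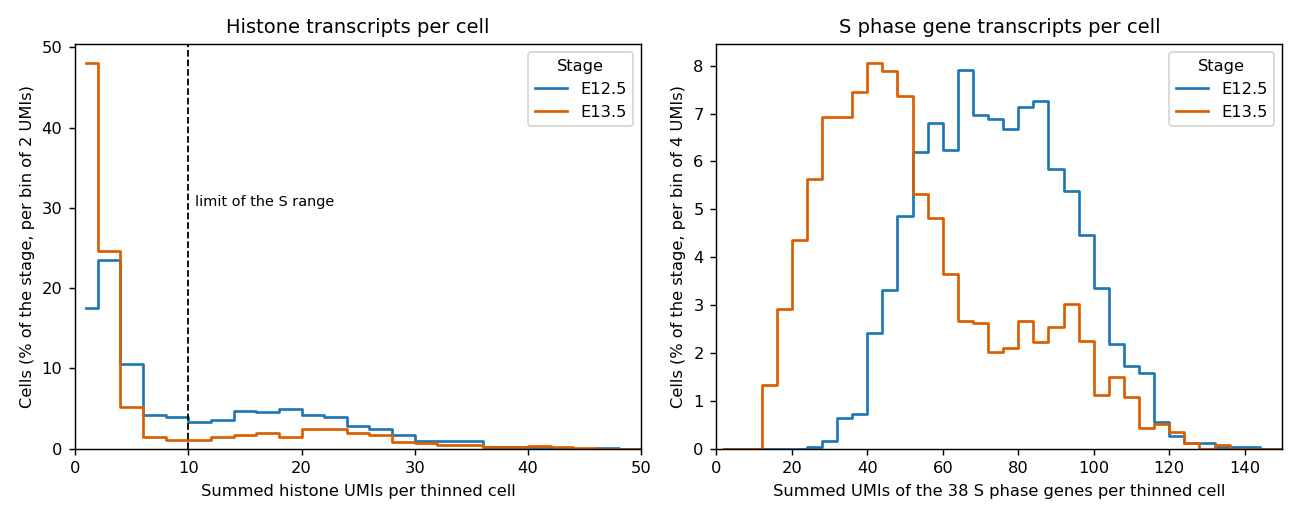
Share of thinned germ-like cells (%) by summed histone UMIs per cell, in bins of 2 UMIs (left), and by summed UMIs of the 38 S phase genes per cell, in bins of 4 UMIs (right), at E12.5 (blue) and E13.5 (orange). The dashed line marks the limit of 10 histone UMIs; on the right the E13.5 median of 47.0 UMIs lies below the E12.5 median of 74.0 UMIs, and the upper ends overlap.

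To separate fewer cells in S phase from less RNA per S phase cell, cells were sorted without any of the 38 genes. The measure was the summed UMIs of 55 replication-dependent histone genes, whose transcripts accumulate in S phase and are degraded at its end. Most such transcripts lack a poly(A) tail, so a 3′ assay sees only part of them, and 5 genes held 85.5% of their UMIs. The pooled histone sum of both libraries had a low and a high component, centred at 1.60 and 19.3 UMIs, with a limit of 10 UMIs between them. Cells at or above it are called the S range. Cells below it with 93 or more UMIs of the G2/M list are called the G2/M range, and the others the rest, which may hold cells in G1, arrested cells and cells near the limits. These are ranges of a score and not cell types. At 8 to 12 histone UMIs, near the limit, lay 9.03% of E12.5 cells and 2.67% of E13.5 cells. The G2/M limit is less sharp: 39.2% and 27.8% of cells lay equally near it in fold, so many cells could fall either in the G2/M range or in the rest.

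The S range held fewer cells at E13.5 and the rest held more. It took 935 of 2325 cells at E12.5 (40.2%, 38.2 to 42.2) and 457 of 2323 at E13.5 (19.7%, 18.1 to 21.3). Among these S range cells, 65 of 935 at E12.5 and 63 of 457 at E13.5 also reached the G2/M limit. The G2/M range took 31.8% (29.9 to 33.7) and 24.5% (22.8 to 26.3). The rest took 651 cells at E12.5 (28.0%, 26.2 to 29.9) and 1296 at E13.5 (55.8%, 53.7 to 57.8).

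Within the S range the summed level of the S phase genes was the same at both stages to within a few percent. A cell of the S range held a mean of 86.6 UMIs of the 38 genes at E12.5 (SD over cells 16.1) and 88.2 at E13.5 (SD 16.1), a ratio of 1.02 (1.01 to 1.03). In the G2/M range the means were 57.3 and 49.9 UMIs, a ratio of 0.871 (0.858 to 0.884). In the rest they were 76.0 UMIs (SD 15.1) at E12.5 and 40.9 UMIs (SD 19.5) at E13.5, 1.86-fold lower, with a ratio of 0.538 (0.532 to 0.545). The rest of E12.5 therefore stood near its S range, and the rest of E13.5 did not: 82.9% of its cells lay below the 10th percentile of the E12.5 rest, 57.0 UMIs. Cells of the rest at E13.5 had a median of 4.86% mitochondrial UMIs and 21006 total UMIs before thinning, against 3.83% and 22480.0 at E12.5, and the part of these in the result was not tested.

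**Figure D3:**
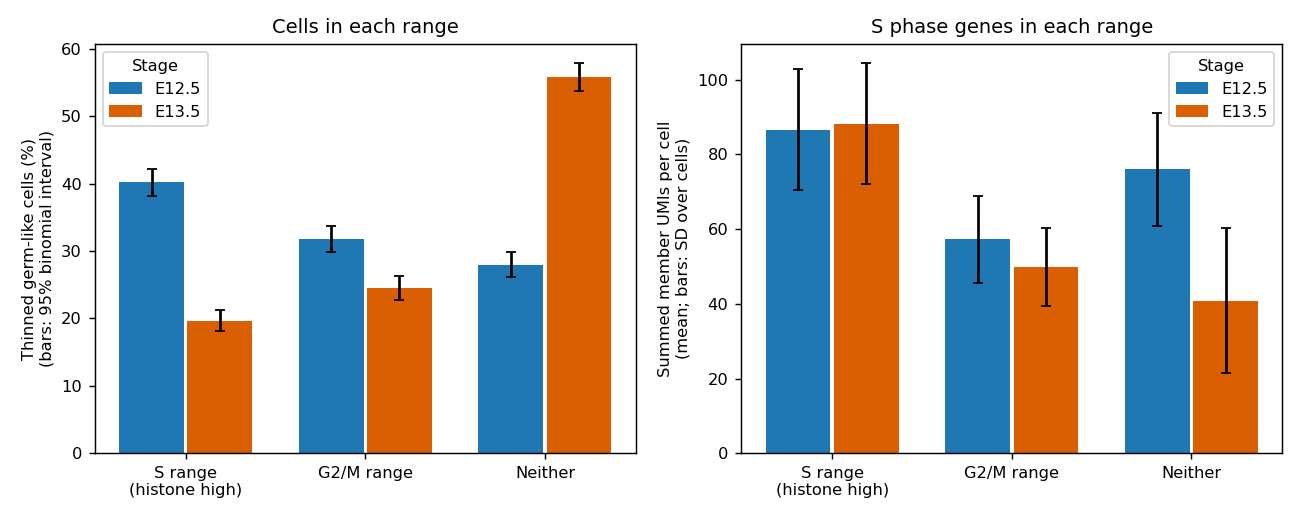
Left, share of thinned germ-like cells in each range (%, bars are 95% binomial intervals); right, mean summed UMIs of the 38 S phase genes per cell in each range (bars are the SD over cells), at E12.5 (blue) and E13.5 (orange). The S range took 40.2% of cells at E12.5 and 19.7% at E13.5, at 86.6 and 88.2 UMIs per cell, and cells of neither range held 76.0 UMIs at E12.5 and 40.9 at E13.5.

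The difference in mean level, -21.9 UMIs per cell, was divided into a part from the shares of the ranges, at the mean levels of both stages, and a part from the levels within ranges, at the mean shares. The shares gave 25.5% of it and the levels 74.5%, of which the rest gave 67.2%, the G2/M range 9.53% and the S range -2.30%. With the levels of E12.5 kept and only the shares moved to those of E13.5, the mean would be 0.989 of its E12.5 value, since the rest of E12.5 stood high. With only the levels moved it would be 0.845. By this measure the summed level within cells of the S range was not lower at E13.5, and the difference lay in the shares of the ranges and in cells outside the S range. The division depends on how the ranges are drawn. The histone genes were themselves lower at E13.5, at a summed ratio of 0.587. Within each stage, cells with the most histone UMIs also held more UMIs of the 38 than cells with the fewest. Sorting by histones thus also sorts cells in part by the level of the 38, and the values above are not independent of it. The 67 other replication genes belong to the same programme as the 38 and were lower with them, so sorting cells by them also sorts cells by the level of the 38, and the values that follow do not stand apart from the difference they divide. With these genes in place of the histones, the S range took 85.6% of cells at E12.5 and 35.7% at E13.5, the level within it had a ratio of 0.995 (0.986 to 1.0), and the shares gave 61.8% of the difference. When the rest was split by their summed UMIs, an alternative chosen after seeing the data, at a limit of 73 UMIs that had 57.4% and 49.3% of cells near it, its part with these genes low held 71 cells at E12.5 (3.05%, 2.39 to 3.84) and 1089 at E13.5 (46.9%, 44.8 to 48.9), and the part from shares came to 58.5%. In that low part the 38 genes stood at 61.4 and 34.9 UMIs per cell, and in the high part at 77.8 and 72.6, a ratio of 0.932 (0.915 to 0.95).

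Gene by gene, the S range was level at the median, but not for most genes that were 1.5-fold lower over all cells. Of the 38 genes, 19 lay below 1 there and 19 above, and the median log2 ratio was -0.00, against 0.01 over all genes. Within 1.3-fold lay 33 of the 38. The share of all genes within 1.3-fold was not counted, so this does not set the 38 apart. At least 1.5-fold lower within the S range were 2 of 38, where 8.22% of all genes were: Rrm2, with 2.09 UMIs per cell at E12.5 and 1.02 at E13.5 (ratio 0.489, 0.441 to 0.541), and Cdc6, with 0.297 and 0.190 (ratio 0.640, 0.497 to 0.817). Ung (0.689), Gins2 (0.739) and E2f8 (0.787) followed. Mcm4 (0.801), Cdc45 (0.801), Dscc1 (0.835), Dtl (0.841), Chaf1b (0.845) and Mcm2 (0.876) also had intervals below 1. Every gene that was 1.5-fold lower over all cells thus had a ratio below 1 in the S range. For Ubr7 (0.948), Wdr76 (0.991) and Gmnn (0.992) the interval held 1. These genes were picked by their ratio over all cells, which include those of the S range. Tipin was the 1 gene at least 1.5-fold higher, with 2.43 and 3.97 UMIs per cell (ratio 1.64, 1.54 to 1.74), and Cdca7 had a ratio of 1.28 (1.13 to 1.44). The ratio of Tipin over all cells, 1.12, thus came with a higher level in the S range and in the G2/M range (1.51 and 2.30 UMIs per cell, ratio 1.52, 1.40 to 1.65) and a lower one in the rest (2.23 and 1.66 UMIs per cell, ratio 0.743).

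In the rest, all 38 genes were lower at E13.5, against 53.7% of all genes, and 29 were at least 1.5-fold lower, against 14.4% of all genes, with a median log2 ratio of -0.92. Rrm2 was 7.45-fold lower there (1.84 and 0.248 UMIs per cell), E2f8 7.28-fold (0.359 and 0.0494) and Cdc6 6.08-fold (0.525 and 0.0864). Gmnn showed the contrast between ranges at a high level: it had 5.76 and 5.72 UMIs per cell in the S range, a ratio of 0.992 (0.947 to 1.04), and 5.23 and 1.68 in the rest, 3.12-fold lower. The 9 genes that were not 1.5-fold lower in the rest were Atad2, Blm, Brip1, Cdca7, Hells, Pola1, Prim1, Rpa2 and Tipin. In the G2/M range 8 of 38 were at least 1.5-fold lower, against 9.78% of all genes: Cdc6, Dtl, E2f8, Gins2, Rrm2, Ubr7, Ung and Wdr76. Across the 38 genes the log2 ratios in the S range and in the rest had a Spearman's rho of 0.692, which describes genes of the same libraries and cells. Of the 36 genes with a lower mean per thinned cell, 4 had 50% or more of the difference from the shares of the ranges. With the rest split as above, 21 did. Neither count was set beside all genes. The 4 differed little in mean UMIs per cell, so their percents rest on small differences. They were Brip1 (0.285 and 0.243), Hells (6.88 and 6.50), Pola1 (0.585 and 0.540) and Prim1 (1.32 and 1.10). The ratio between stages had an interval above 1 in the S range and below 1 in the rest for 10 of the 38 genes, against 2.39% of all genes.

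**Figure D4:**
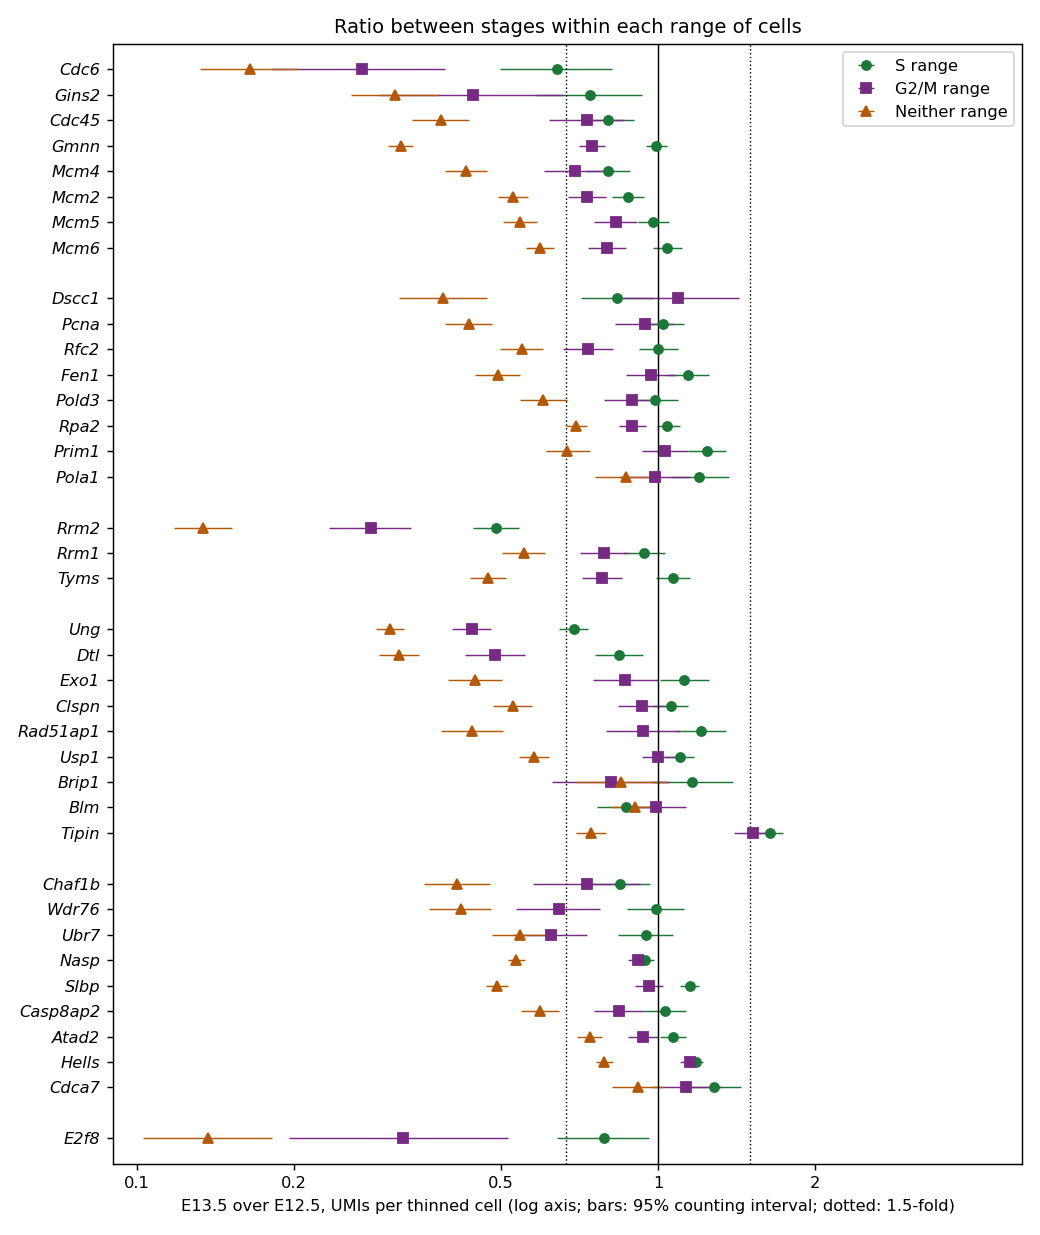
Ratio of E13.5 over E12.5 in UMIs per thinned cell for each S phase gene within the S range (green circles), the G2/M range (purple squares) and neither (brown triangles), on a log axis with 95% counting intervals; dotted lines mark 1.5-fold. Green circles lie around 1 for most genes, with Rrm2 and Cdc6 to the left and Tipin to the right, and brown triangles lie left of 1 for all 38.

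The contrast between ranges within a stage was small at E12.5 and large at E13.5. At E12.5 the summed level in the S range was 1.14 times that in the rest (1.13 to 1.15), and at E13.5 it was 2.16 times (2.13 to 2.18). At least 1.5-fold higher in the S range than in the rest were 2 of 38 genes at E12.5, Dscc1 (1.57) and Brip1 (1.5), where 1.09% of all genes were. At E13.5 they were 36 of 38, where 7.52% of all genes were. The exceptions at E13.5 were Blm, which stood at 0.761 UMIs per cell in the S range and 0.755 in the rest, and Cdca7, at 1.46. The largest contrast at E13.5 was that of E2f8, 5.98 times higher in the S range (4.41 to 8.19), followed by Rrm2 at 4.13 (3.57 to 4.77). The contrast was larger at E13.5 than at E12.5 for 37 of 38 genes, against 54.6% of all genes, and Blm was the exception.

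The order of the ranges also told genes apart. At E12.5, 33 of the 38 genes were highest in the S range, as were 30% of all genes, and 5 were highest in the rest, as were 31.9%: Cdc6, Gins2, Dtl, Ung and Casp8ap2. The counting interval of the level in the S range over the rest lay above 1 for 28 of the 38, against 12.7% of all genes, and below 1 for 3, Cdc6, Dtl and Gins2, against 17.0%. For the other 7, Ung, Casp8ap2, E2f8, Blm, Cdca7, Mcm2 and Mcm4, the order of these ranges is not settled beyond counting error. Cdc6 stood at 0.525 UMIs per cell in the rest and 0.297 in the S range, Dtl at 1.99 and 1.3 and Gins2 at 0.436 and 0.296; all 3 had an interval above 1 at E13.5, a turn that 2.44% of all genes showed. Cdc6 and Gins2 act at the start of replication, and Dtl is bound to replicating forks through PCNA. At E13.5 all 38 were highest in the S range, against 33.7% of all genes. The G2/M range was lowest for 37 of 38 genes at E12.5 (31.4% of all genes), with Prim1 the exception, and for 12 at E13.5 (26.9%), where the other 26 were lowest in the rest (37.2%). Over the G2/M range the S range was at least 1.5-fold higher in 20 of 38 genes at E12.5, against 1.67% of all genes, and in 34 at E13.5, against 3.67%. The G2/M range was at least 1.5-fold higher than the rest in 0 of 38 at E12.5, against 1.98% of all genes, and in 5 at E13.5, against 4.61%.

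Ordering cells by their histone sum, with no limit, gave a like picture. Cells of each stage were put in 10 groups of equal size, from the fewest histone UMIs to the most, with ties split arbitrarily. In the lowest group of E12.5 cells the 38 genes summed to 61.1 UMIs per cell (60.1 to 62.2), and in the top group to 90.4 (89.2 to 91.6), with a gradual climb between. At E13.5 the lowest 7 groups all lay between 40.2 and 45.0 UMIs, but groups 1 and 2 held no histone UMI and group 6 a mean of 2, so cells there were tied and their order is arbitrary. Group 8 stood at 54.8, group 9 at 86.1 (84.9 to 87.3) and group 10 at 89.8 (88.6 to 91.0), so the upper groups of both stages met and the lower ones did not.

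**Figure D5:**
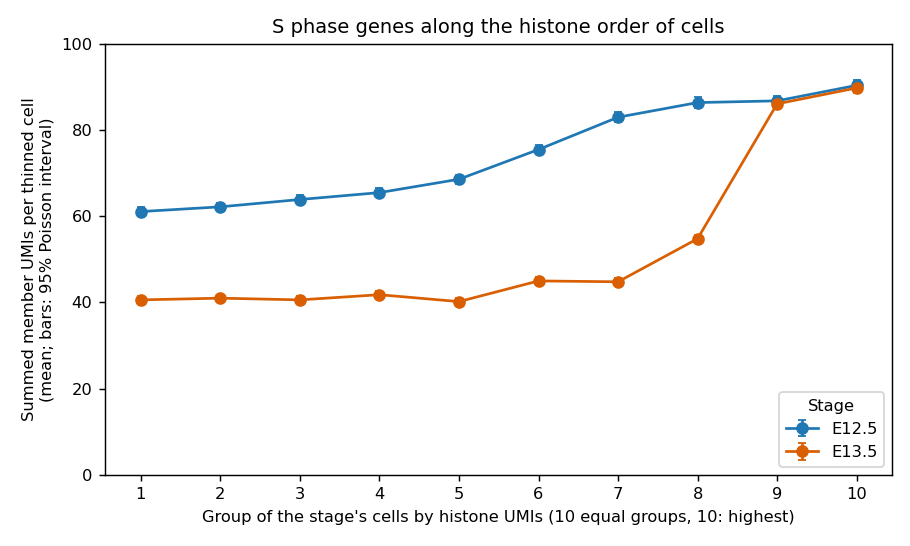
Mean summed UMIs of the 38 S phase genes per thinned cell (bars are 95% Poisson intervals) in 10 equal groups of the cells of each stage ordered by histone UMIs, at E12.5 (blue) and E13.5 (orange). The E12.5 line climbs from 61.1 to 90.4 UMIs, while the E13.5 line lies between 40.2 and 45.0 UMIs up to group 7 and reaches 86.1 and 89.8 in the last groups.

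At E13.5, cells were also compared by Nanos2, an RNA-binding protein of male germ cells. The 614 thinned cells with a Nanos2 UMI held 39.2 UMIs of the S phase genes (38.7 to 39.7) and the 1709 without one 57.2 (56.9 to 57.6). The S range took 7.0% of the former (5.11 to 9.32) and 24.2% of the latter (22.2 to 26.3), and within it the levels were 89.1 and 88.1 UMIs per cell. In the rest the levels were 32.3 and 45.8 UMIs. Cells with a Nanos2 UMI had a median of 21342 total UMIs before thinning and the others 23054, and a cell without a UMI may still express the gene.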

How the data were processed

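The deposited tables hold raw UMI counts per gene and barcode of 10x v2 libraries, per the labels' protocols and the values, in which no gene has under 3 barcodes and no barcode under 201 genes. Cell Ranger and mm10 (GRCm38) stand in the list of tools and builds, per the submitters' processing notes; the version of the tool and the gene annotation are not given in the sources used here. Gene positions are from GENCODE on GRCm38.

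Kept barcodes (2621 and 2670 at E12.5 and E13.5) had at least 500 genes and less than 10% of UMIs from mitochondrial genes; both libraries were clustered jointly on 2000 variable genes (scanpy 1.11.5, leidenalg 0.10.2; 30 components, 15 neighbours, resolution 0.5). Germ-like clusters had a median of at least 0.3% germ marker UMIs; a cluster of low UMI count and a Sertoli-like cluster stayed out, as did cells with 0.5% or more macrophage or erythroid marker UMIs. Scrublet called 65 and 27 doublets among germ-like cells (expected rate 0.06), which were kept. Germ-like counts were summed per library to CPM over 59673637 and 58596390 UMIs. Intervals at 95% are conditional binomial (Clopper-Pearson) for ratios, Poisson for levels and binomial for shares; PCR duplicates are removed by UMIs. At least 1.5-fold is a class of size, over genes at 10 CPM or more, with no p-value. Limits of the ranges came from mixtures of 2 normal components on log2(UMIs + 1), fitted by expectation maximisation with numpy 2.4.6. The ratio intervals and the division were tested on simulated counts that had no G2/M range. Within a simulated range, histone counts were drawn apart from the level of the S phase genes. That test therefore does not cover the G2/M limit or a link between histones and these genes.

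Named with full values were, by rule, the member with the most UMIs and those with the lowest and highest ratio in each role group, every member 1.5-fold apart, and the 3 lowest and 3 highest of the other replication genes; further genes were named after their values were seen. Members, lists and rules were chosen with earlier results of these data known. Alternatives were TMM factors (edgeR 4.0.16), another denominator, other filters on cells and genes, no doublets, resolution 1.0, equal weight per cell, other measures and limits of the S range, no G2/M range, a second thinning, none, and a split of the rest.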

Additional observations from a re-analysis of the deposited data

Results flagged for a closer look

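These differences were not tested, since each stage has 1 library, and are given because counting intervals lay on opposite sides of 1. The level in the S range over that in the rest was below 1 at E12.5 and above 1 at E13.5 for Cdc6 (0.566 and 2.20), Gins2 (0.679 and 1.60) and Dtl (0.656 and 1.73), a turn shown by 2.44% of all genes. Between stages, the E13.5 level relative to E12.5 was above 1 in the S range and below 1 in the rest for 10 of the 38 genes, against 2.39% of all genes. They include Pola1 (1.20 and 0.868) and Prim1 (1.24 and 0.670), of the polymerase alpha and primase complex. They also include the flap and end nucleases Fen1 (1.14 and 0.493) and Exo1 (1.12 and 0.445). Rad51ap1, a DNA repair factor, had 1.21 and 0.440, the deubiquitinase Usp1 1.10 and 0.577, and Tipin 1.64 and 0.743. Among genes of chromatin and histone supply these were Slbp (1.15 and 0.491), Hells (1.18 and 0.789) and Atad2 (1.07 and 0.739).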

How the results depend on the processing

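No paired analysis was possible because each stage has 1 library. Over TMM factors, a denominator that leaves out mitochondrial and ribosomal protein genes and the top 50, all barcodes, a filter at 2000 genes and 5% mitochondrial UMIs, no doublet calls, resolution 1.0 and equal weight per cell, all 38 genes kept their side of 1 in each of 266 ratios, of which 42 moved beyond their counting interval, by at most 1.14-fold. The summed ratio was 0.745 with that denominator, 0.766 with the stricter filter and 0.703 with equal weight, and the median log2 ratio was -0.43 with the stricter filter. A minimum of 50 CPM left 8 genes at least 1.5-fold lower, and the other alternatives gave 11 to 19. That minimum left out Cdc6, E2f8, Gins2, Dscc1, Chaf1b and Wdr76, which were 1.5-fold lower. It also left out Pola1, Brip1, Rad51ap1 and Cdca7, which were not.

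The share of cells in S phase and the division of the drop depend on how S phase is measured. With the 67 other replication genes as the measure, 85.6% of cells at E12.5 and 35.7% at E13.5 were in the S range, the shares gave 61.8% of the drop, and the ratio was 0.995 within the S range and 0.550 in the rest. At the E12.5 median of the histone sum, 5 UMIs, the S range took 52.7% and 23.6% and the shares gave 35.5%. With the upper 30% of each library as the S range the ratios were 0.875 and 0.499, which by construction puts cells of unlike histone level side by side. The shares gave 26.8% with no thinning, 30.5% with no G2/M range, where the ratio in the rest was 0.661, and 58.5% with the rest split after seeing the data, where its low part had a ratio of 0.569. In none of these was the summed level in the S range over 1.5-fold apart between stages. With 1 library per stage no spread between embryos or libraries can be given. The histone median of thinned E12.5 cells was 5 UMIs, on the edge of the limit set for this measure: under 5, the other replication genes would have been the main measure, and the shares would have given 61.8% in place of 25.5%.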
